A study of Mus musculus with 2 samples.

Results

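Reln, the gene of the secreted protein reelin, and 6 genes that receive or relay the reelin signal were followed through total RNA-seq of the mouse embryonic hindbrain. The members were chosen by name: the ligand Reln, the receptors Vldlr and Lrp8, the adaptor Dab1, the Src family kinase Fyn, and the adaptors Crk and Crkl. Each was found by its gene identifier, so all 7 were measured among 43346 genes. The tissue was hindbrain, the part of the brain that forms cerebellum, pons and medulla, from strain B6NCrl embryos aged 14.5 days, with no treatment or genetic change named in the labels. It was sequenced in 2 libraries, replicate 1 and replicate 2, which form 1 group. The labels number the libraries as biological replicates 1 and 2, call each a single hindbrain and give each its own collection date. They also give both the same donor identifier, the same pup and pregnancy number (pup 1, pregnancy 2) and a pooled sex, so that these were separate embryos rests on the replicate numbers and dates. Date and replicate cannot be told apart. A p-value between the libraries therefore asks only whether they differ by more than counting noise. It estimates no spread between samples, and a difference may be technical.

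Reelin is a large glycoprotein that neurons secrete into the surrounding matrix, where it guides migrating neurons to their layers. In the developing cerebellum it comes from cells of the rhombic lip and the granule and nuclear lineages, and Purkinje cells carry its receptors. Binding clusters Vldlr and Lrp8 (also called ApoER2), Src family kinases such as Fyn then phosphorylate tyrosines of Dab1, which is docked on the receptor tails, and phosphorylated Dab1 recruits Crk and Crkl before it is ubiquitinated and degraded. Mice that lack Reln, Dab1, or both receptors share a phenotype with a small, disordered cerebellum and ataxia.

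Several of these genes are spliced into forms that differ in the signal they carry, and the exons concerned are shown here because the transcript measurements turn on them. Each was read from the GENCODE M21 transcript on GRCm38 (mm10), 5′ to 3′, with the alternative exon in capitals and 20 bases of the neighbouring exons of the spliced transcript in lower case. The Reln exon is the last but one of the full-length transcript Reln-207 (exon 64 of 65, chr5:21891562-21891567, minus strand), 6 coding bases that neurons are known to include. The Dab1 exons are exons 7 and 8 of Dab1-203 (chr4:104680070-104680108 and chr4:104681598-104681663, plus strand). They lie in the region of tyrosines that Src family kinases phosphorylate, and in frame they hold 1 and 2 tyrosine codons.
Reln microexon: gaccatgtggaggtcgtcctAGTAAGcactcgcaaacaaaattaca
Dab1 exon 7: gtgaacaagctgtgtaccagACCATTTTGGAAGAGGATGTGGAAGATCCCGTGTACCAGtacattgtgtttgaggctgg
Dab1 exon 8: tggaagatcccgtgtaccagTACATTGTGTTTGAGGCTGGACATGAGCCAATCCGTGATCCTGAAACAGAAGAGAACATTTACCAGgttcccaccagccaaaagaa

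For the receptors, the exons shown alter the outer stalk and the inner tail. Exon 16 of Vldlr-207 (chr19:27246593-27246676, plus strand, 84 bases) encodes the domain that carries O-linked sugars. Exon 19 of Lrp8-209 (chr4:107870012-107870188, plus strand, 177 bases, 59 codons) encodes an insert of the cytoplasmic tail that binds scaffold proteins.
Vldlr O-linked sugar exon: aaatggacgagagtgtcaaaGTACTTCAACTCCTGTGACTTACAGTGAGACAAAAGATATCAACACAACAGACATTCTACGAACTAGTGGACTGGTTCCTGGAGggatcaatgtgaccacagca
Lrp8 cytoplasmic insert exon: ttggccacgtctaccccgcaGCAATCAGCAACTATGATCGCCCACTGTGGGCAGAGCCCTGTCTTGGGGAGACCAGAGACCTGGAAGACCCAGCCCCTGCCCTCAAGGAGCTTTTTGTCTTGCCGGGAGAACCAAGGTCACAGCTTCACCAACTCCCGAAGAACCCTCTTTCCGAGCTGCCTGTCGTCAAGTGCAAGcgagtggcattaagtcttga

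For the kinase and the adaptor, the exons shown tell the known protein forms apart. Fyn uses either the exon of FynB, the form of brain (exon 9 of Fyn-202, chr10:39529437-39529601, plus strand), or that of FynT, the form of T cells (exon 9 of Fyn-201, chr10:39529919-39530074, plus strand). Aligned end to end, the 165 and 156 bases of the pair were identical in 93 of 168 columns, or 55.4%. The Crk segment is a 170-base part of exon 2 of Crk-201 (chr11:75692563-75692732, plus strand). It is kept in the transcript of CrkII, which has a second SH3 domain, and removed in that of CrkI by an earlier splice donor.
FynB exon: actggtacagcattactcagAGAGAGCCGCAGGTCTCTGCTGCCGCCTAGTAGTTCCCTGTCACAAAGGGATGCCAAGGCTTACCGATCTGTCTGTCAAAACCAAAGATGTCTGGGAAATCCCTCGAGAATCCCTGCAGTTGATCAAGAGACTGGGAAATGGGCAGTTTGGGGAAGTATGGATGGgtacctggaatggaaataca
FynT exon: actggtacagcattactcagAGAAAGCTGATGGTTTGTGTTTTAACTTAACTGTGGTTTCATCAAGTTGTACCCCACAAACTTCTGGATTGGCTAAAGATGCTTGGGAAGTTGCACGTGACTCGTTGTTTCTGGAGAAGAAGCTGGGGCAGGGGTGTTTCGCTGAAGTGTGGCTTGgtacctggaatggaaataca
CrkII segment: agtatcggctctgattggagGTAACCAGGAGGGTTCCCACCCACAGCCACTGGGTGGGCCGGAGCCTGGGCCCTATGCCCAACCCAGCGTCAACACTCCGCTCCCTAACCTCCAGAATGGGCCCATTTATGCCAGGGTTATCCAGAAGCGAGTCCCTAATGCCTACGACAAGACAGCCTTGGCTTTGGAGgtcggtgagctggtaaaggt

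On genes, the authors estimated 33727977 reads in replicate 1 and 32450699 in replicate 2 (expected counts). Levels are in TPM, a share of all transcripts per length, which allows genes to be compared; 15088 genes reached 1 TPM in both libraries. Between the libraries, an exact two-sided binomial test of rounded counts, scaled by each library's gene total and adjusted by the Benjamini-Hochberg method over 17664 genes, called 34.4% of genes at a threshold of 0.05, 15.7% higher and 18.7% lower in replicate 2. The labelled tissue was checked against markers: 8 of 10 hindbrain position genes and 1 of 8 forebrain genes (Lhx2) reached 1 TPM in both libraries. The hindbrain position genes that did not were En2 (0.05 and 0.79 TPM in replicates 1 and 2) and Egr2 (1.37 and 0.91 TPM), both named after their values were seen. How much of the tissue was cerebellum was not tested. The libraries differed in some markers of brain region and lineage: Lhx2 had 435 and 646 reads in replicates 1 and 2, Six3 of the same forebrain list 1 and 19, En2 of the hindbrain position list 4 and 53, and Neurog1 of the precerebellar list 0 and 66 (En2 and Neurog1 named after their values were seen).

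All 7 genes were expressed well above the detection limit in both libraries, and their mean levels spanned 3.62-fold. In whole tissue, fewer cells of a type and less RNA per cell cannot be told apart. Reln, the ligand (chr5:21884454-22344702, minus strand), stood at 47.65 TPM in replicate 1 and 48.71 TPM in replicate 2, or 48.2 ± 0.75 TPM (SD, n = 2). The libraries gave nearly the same value, and the authors' credibility bounds overlapped, at 44.0 to 50.4 and 45.1 to 51.6 TPM. Of the detected genes, 76.3% had a lower mean.

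The receptors stood at unequal levels, with Lrp8 above Vldlr in both libraries. Lrp8 (chr4:107802261-107876840, plus strand) had 54.25 and 49.83 TPM in replicates 1 and 2, or 52.0 ± 3.13 TPM (SD, n = 2). Vldlr (chr19:27216484-27254231, plus strand) had 22.65 and 25.43 TPM, or 24.0 ± 1.97 TPM (SD, n = 2), the lowest of the 7. Lrp8 exceeded Vldlr 2.40-fold in replicate 1 and 1.96-fold in replicate 2, and neither the values nor the bounds of the receptors overlapped. Over transcripts annotated as protein coding alone, the excess was 2.29-fold and 1.85-fold. Reln stood at 0.620 and 0.647 times the summed level of both receptors in replicates 1 and 2.

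Dab1 (chr4:103619359-104744844, plus strand), the adaptor bound to the receptor tails, had 48.18 TPM in replicate 1 and 58.97 TPM in replicate 2, or 53.6 ± 7.63 TPM (SD, n = 2). Its level was higher in replicate 2, and the bounds, 45.0 to 50.9 and 54.9 to 61.6 TPM, did not overlap. Set against the sum of the receptors, Dab1 stood at 0.627 in replicate 1 and 0.784 in replicate 2, a wider spread than that of Reln against the same sum.

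The kinase Fyn (chr10:39368855-39565381, plus strand) was the most abundant of the 7, with 83.24 and 90.94 TPM in replicates 1 and 2, or 87.1 ± 5.44 TPM (SD, n = 2). Crk (chr11:75679259-75706908, plus strand), an adaptor of SH2 and SH3 domains, had 80.1 and 92.33 TPM, or 86.2 ± 8.65 TPM (SD, n = 2). The order of Fyn and Crk changed between the libraries, so they do not differ beyond their spread. Crkl (chr16:17451987-17487434, plus strand), the paralog of Crk, had 37.15 and 46.28 TPM, or 41.7 ± 6.46 TPM (SD, n = 2). Crk exceeded Crkl 2.16-fold in replicate 1 and 2.00-fold in replicate 2.

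By mean level the order was Fyn, Crk, Dab1, Lrp8, Reln, Crkl, Vldlr. Among neighbours in that order, Crk lay above Dab1 and Crkl above Vldlr, with values and bounds apart in both libraries. Dab1 and Lrp8 had overlapping values. Lrp8 lay above Reln and Reln above Crkl in each library, but their bounds were apart in replicate 1 and overlapped in replicate 2.

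**Figure D1:**
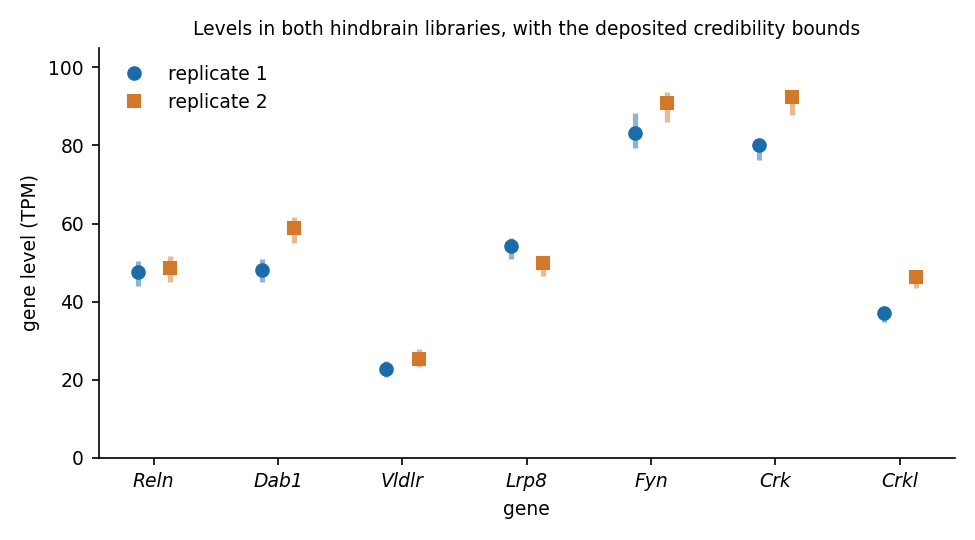
Gene level in TPM (vertical axis) of the 7 genes in replicate 1 (circles) and replicate 2 (squares), with vertical bars for the authors' credibility bounds of TPM. Fyn and Crk are highest in both libraries and Vldlr lowest, and the bars of Dab1, Crk and Crkl do not overlap between the libraries.

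These levels sum very different transcripts. The files list 55 transcripts of the 7 genes, of which 18 held at least 10% of their gene's TPM in either library. A short transcript gains TPM from few reads, so shares of TPM and of reads are given side by side.

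Reln had the widest gap between both measures. Reln-207, the full-length coding transcript of 11699 bases and 65 exons, had 20.73 and 21.89 TPM in replicates 1 and 2, which was 43.5% and 44.9% of the gene's TPM but 86.5% and 87.9% of its reads. Reln-205, an 891-base transcript of 3 exons at the 3′ end that is annotated as noncoding, had 21.07 and 21.56 TPM, which was 44.2% and 44.3% of the TPM but 6.0% and 5.9% of the reads. Of its bases, 761 lie in exons of Reln-207 and 130 do not. These 130 extend the microexon in the 5′ direction, so that Reln-205 holds a 136-base exon in its place. The split between this transcript and the 3′ end of Reln-207 rests on the authors' estimate. Counting coding transcripts alone, Reln stood at 21.9 ± 0.69 TPM (SD, n = 2), below Crkl at 41.7 ± 6.46 TPM (SD, n = 2), which it exceeded when all transcripts were counted. Over coding transcripts Dab1 stood at 41.5 ± 7.53 and Lrp8 at 33.3 ± 1.06 TPM (SD, n = 2), above Reln. Over all transcripts their means were also above that of Reln, but the bounds overlapped, for Dab1 in replicate 1 and for Lrp8 in replicate 2. The 7 Reln transcripts with retained introns summed to 8.96% and 7.96% of its TPM. Reln-204, a 3409-base member of that class with 17.5 and 2.41 reads, was the 1 Reln transcript whose bounds did not overlap between the libraries (named after its values were seen).

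Transcripts annotated as targets of nonsense-mediated decay, the surveillance that degrades messages whose stop is read as premature, held a large part of Dab1 and of both receptors. For Vldlr it was Vldlr-201 with 6.55 and 6.72 TPM in replicates 1 and 2, or 28.9% and 26.4% of the gene. For Lrp8 it was Lrp8-209 with 11.74 and 10.9 TPM, or 21.6% and 21.9%. For Dab1 it was Dab1-207 with 8.77 and 9.47 TPM, or 18.2% and 16.1%. The annotated coding sequences of Vldlr-201 (1494 bases) and Dab1-207 (774 bases) are shorter than those of Vldlr-207 (2619) and Dab1-203 (1665). That of Lrp8-209, 2988 bases, is not shortened and is the longest among the Lrp8 transcripts. All bases of Vldlr-201 lie in exons of Vldlr-207, so its share rests on the authors' estimate, with bounds of 3.88 to 7.94 and 4.02 to 8.48 TPM. Over all transcripts of the libraries this class held 1.83% and 1.86% of TPM. That total includes genes without such a transcript, so it is not a like background for genes that have one. By reads the shares were 22.5% and 20.1% for Vldlr, 14.2% and 13.9% for Lrp8, and 14.9% and 12.6% for Dab1. Reln-212, the transcript of this class in Reln, was at 0 TPM in both libraries, and Fyn, Crk and Crkl have none in the files.

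The coding transcripts of the receptors and Dab1 followed. Lrp8-202, which lacks the cytoplasmic insert, held 59.9% and 63.8% of Lrp8 TPM in replicates 1 and 2, and the short noncoding Lrp8-212 11.3% and 10.6%. Vldlr was split more evenly, among Vldlr-207 (23.3% and 26.4%), Vldlr-202 (24.6% and 22.0%) and the 774-base fragment Vldlr-206 (13.2% and 14.9%). Dab1-203, the longest Dab1 transcript, held 39.6% and 43.5% of TPM but 71.0% and 74.6% of reads. Its bounds, 17.4 to 19.7 TPM in replicate 1 and 23.6 to 26.3 TPM in replicate 2, did not overlap. The fragments Dab1-202 (17.6% and 12.4%) and Dab1-206 (14.0% and 17.8%) made up most of the rest.

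Fyn, Crk and Crkl each had 1 leading transcript. Fyn-202, the FynB form, held 78.3% and 77.2% of Fyn TPM in replicates 1 and 2, and Fyn-206, which has neither of the alternative exons, 12.5% and 13.1%. Crk-201, the CrkII form, held 82.9% and 83.7%, and Crk-203, the CrkI form, 15.9% and 15.1%. Crkl has the single transcript Crkl-201, whose length in the authors' annotation (3863 bases) is shorter than in M21 (5042 bases). A difference in annotated length moves TPM, and its part in the level of Crkl was not tested. The other 37 transcripts summed to between 0% and 12.3% of their gene in either library, the highest being the 10 of Reln in replicate 1.

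**Figure D2:**
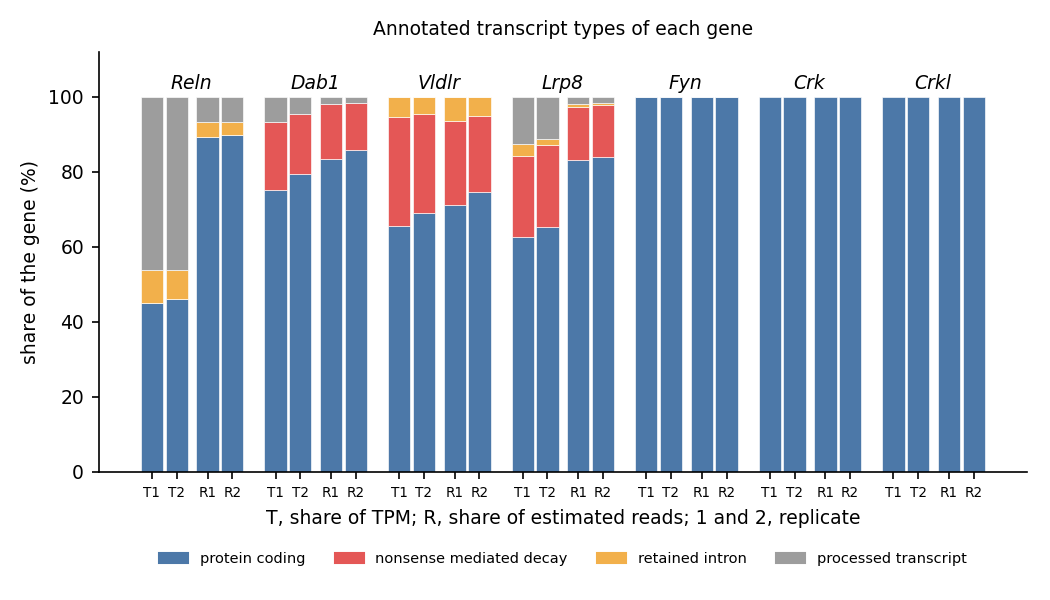
Share of each gene (vertical axis, %) held by each annotated transcript type, by TPM (T) and by estimated reads (R) in replicates 1 and 2. Coding transcripts of Reln hold 45.0% and 46.0% of TPM but 89.2% and 89.8% of reads, and Fyn, Crk and Crkl are coding throughout.

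Inclusion of each alternative exon was computed as the TPM of transcripts with exactly that exon over the TPM of those with it or skipping it. Transcripts with another form of the exon were left out, which concerns Reln-205 at the Reln microexon and Vldlr-204 at the Vldlr sugar exon. The Reln microexon was at 96.7% in replicate 1 and 97.7% in replicate 2, against the skipping transcript Reln-201. With Reln-205 and its 136-base form in the denominator it was at 48.8% and 49.8%. The CrkII segment was kept at 83.1% and 84.3%. The FynB exon was at 80.4% and 79.7% and the FynT exon at 6.86% and 6.74%, the remainder being Fyn-206. Each of these shares moved by less than 1.5 percentage points between the libraries. The FynB and CrkII exons were the main forms in both, and the microexon was far above its skipping form but level with the longer exon of Reln-205.

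Among the transcripts counted, the Dab1 exons were mostly included. Exon 7, shown with its tyrosine codon above, was at 68.5% and 70.0% in replicates 1 and 2, and exon 8 at 100% and 95.9%. The exon 7 shares cover part of the gene. Transcripts with it had 19.08 and 25.65 TPM and those skipping it 8.77 and 10.98, of 48.18 and 58.97 TPM for Dab1. Most skipping of exon 7 was by Dab1-207, the decay-class transcript with 8.77 and 9.47 TPM. Over coding transcripts alone, both exons were at 100% in replicate 1 and 94.4% in replicate 2. The skipping coding transcript was the 641-base fragment Dab1-208, at 0 and 15.98 reads.

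The receptors included their exons unequally. The Vldlr sugar exon was at 28.6% and 32.7% in replicates 1 and 2, and by reads at 49.7% and 54.3%. Vldlr exon 4, 123 bases of 1 ligand-binding repeat, was at 65.4% and 68.9%. In Lrp8 the 225-base sugar exon was at 100% in both libraries. The Lrp8 cytoplasmic insert was at 28.9% and 26.7%, a 381-base exon of 3 ligand-binding repeats at 25.7% and 24.0%, and a 123-base exon of 1 repeat at 34.4% and 33.1%. Most of this came from the decay-class Lrp8-209, which carries all 3 of them. Over coding transcripts alone the insert and the three-repeat exon were both at 4.47% and 2.24%, from Lrp8-201 with 1.52 and 0.73 TPM, and its bounds reached down to 0.00 and 0.10 TPM. The single-repeat exon was then at 0% in both. The coding share rests largely on Lrp8-202, whose coding sequence is annotated as incomplete (2095 bases). It leaves out Lrp8-209 by its annotated class, although the coding sequence of Lrp8-209 is complete and longer (2988 bases). The low coding share therefore does not show that translated Lrp8 RNA lacks these exons.

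**Figure D3:**
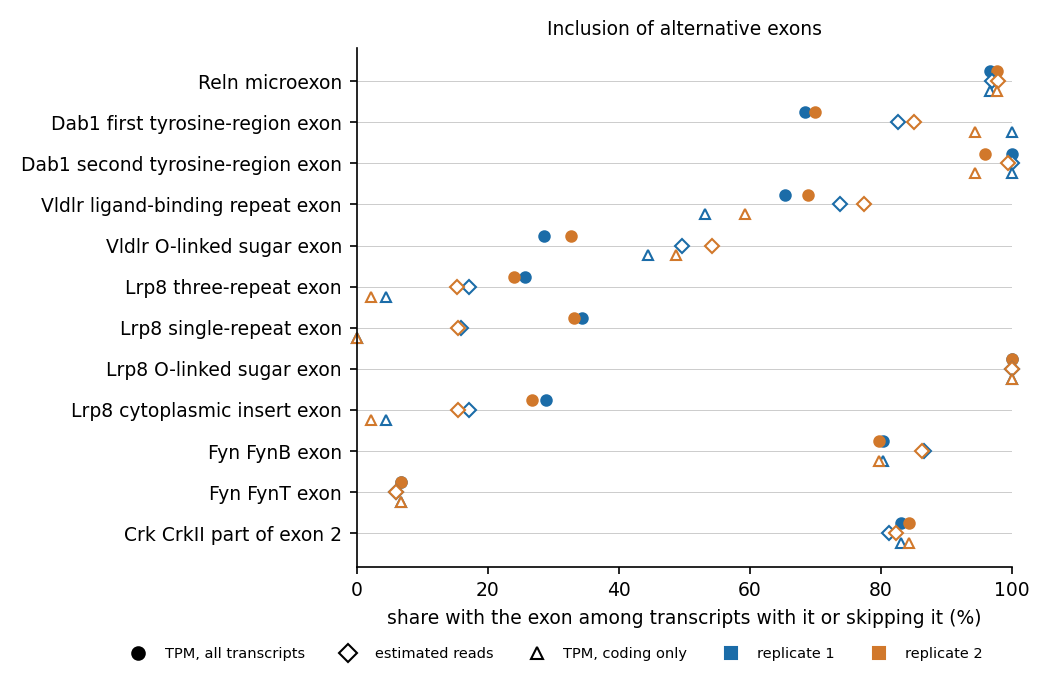
Inclusion (horizontal axis, %) of 12 alternative exons in replicate 1 (blue) and replicate 2 (orange), by TPM of all transcripts, by estimated reads, and by TPM of coding transcripts alone. The Reln (without Reln-205), FynB and CrkII exons lie near or above 80% by every measure, whereas the 3 Lrp8 exons carried by Lrp8-209 fall from between 24.0% and 34.4% to at most 4.47% when coding transcripts alone are counted. That count leaves out Lrp8-209 by its annotated class.

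Within its family, Fyn was the leading Src family kinase. It held 58.7% and 59.4% of the summed TPM of 9 kinases in replicates 1 and 2. Src (23.85 and 20.01 TPM) and Yes1 (15.74 and 19.94 TPM), the other broadly expressed kinases that can phosphorylate Dab1, followed. Fyn was 1.42 and 1.46 times the other 8 together. Among 14 members of the LDL receptor family, Lrp8 ranked 2 and Vldlr 5 by mean level. Lrp1, a receptor for many ligands, led with 91.6 and 93.99 TPM. Lrp11 (31.87 and 42.26 TPM) and Lrp12 (33.37 and 33.04 TPM) came between both reelin receptors. In the list of Dab, Crk and other adaptors, which is not 1 family, Grb2, an SH2 and SH3 adaptor, was highest with 90.35 and 106.64 TPM.

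**Figure D4:**
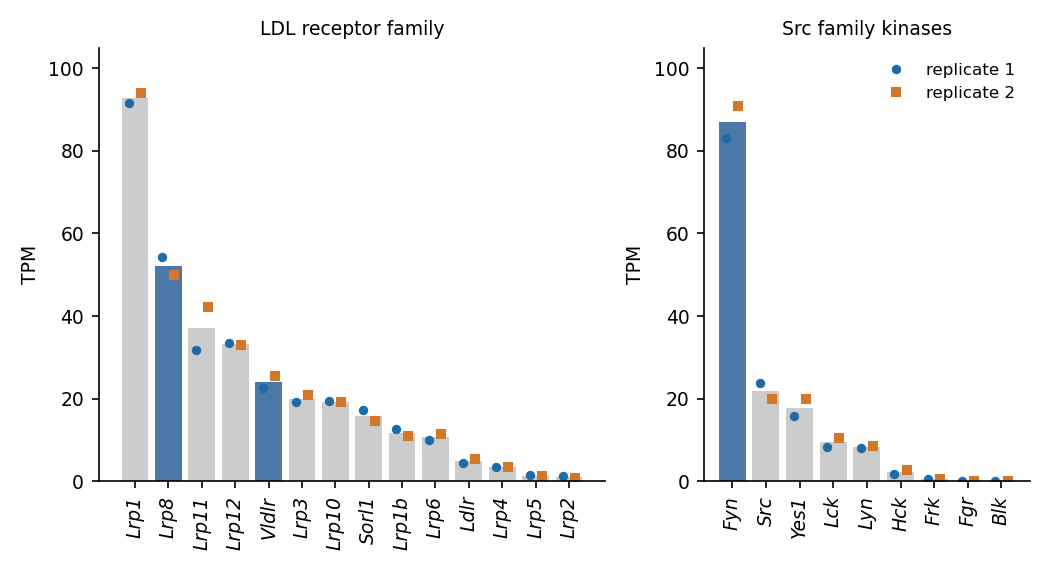
TPM (vertical axis) of 14 LDL receptor family members and 9 Src family kinases, with bars for the mean, circles for replicate 1, squares for replicate 2 and blue bars for Lrp8, Vldlr and Fyn. Fyn stands above every other kinase of its family in both libraries, and Lrp8 is second to Lrp1.

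Between the libraries, 5 of the 7 genes were called, 4 higher and 1 lower in replicate 2. With 34.4% of all genes called, 15.7% higher and 18.7% lower, calls are common here. The test compares 2 libraries and no conditions, and every member differed by less than 1.25-fold in TPM. Dab1 had 2977 reads in replicate 1 and 3480 in replicate 2, a scaled ratio of 1.21 (95% interval 1.16 to 1.28, adjusted p = 1.9e-13 by the exact binomial test). Crkl, with 2989 and 3404 reads, had a ratio of 1.18 (1.13 to 1.24, adjusted p = 3.74e-10, same test). These intervals cover counting error only. Dab1 and Crkl moved more than most genes: 83.4% and 86.0% of detected genes had a smaller absolute log2 TPM ratio.

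The remaining calls were smaller. Crk had 6187 and 6511 reads and a ratio of 1.09 (1.06 to 1.13, adjusted p = 5.08e-06, exact binomial test). Vldlr had 1958 and 2057 reads and a ratio of 1.09 (1.03 to 1.16, adjusted p = 0.0195, same test). Lrp8 was the 1 member called lower, with 5629 and 4902 reads and a ratio of 0.905 (0.871 to 0.941, adjusted p = 3.85e-06, same test). The bounds of TPM overlapped between the libraries for Vldlr and Lrp8 and not for Crk.

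Reln and Fyn were not called. Reln had 5942 and 5646 reads, a ratio of 0.988 (0.952 to 1.02, adjusted p = 0.651, exact binomial test), and 12.3% of detected genes had a smaller absolute log2 TPM ratio. Fyn had 5530 and 5474 reads and a ratio of 1.03 (0.991 to 1.07, adjusted p = 0.255, same test). Scaling by the spike-in total, which moved the median log2 ratio of all genes from -0.03 to 0.10, put the log2 ratio of Reln at 0.11 (adjusted p = 0.000297) and of Fyn at 0.17 (adjusted p = 1.5e-08). It took Lrp8 to -0.02 (adjusted p = 0.628, all by the exact binomial test). DESeq2 size factors also called Fyn, with a log2 ratio of 0.07 (adjusted p = 0.0424). Of all calls, 45.7% were higher in replicate 2 with the gene total and 80.6% with the spike-in total. The calls of Dab1, Vldlr, Crk and Crkl held under each scaling and count filter tried, and a 2-fold minimum ended all 5.

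**Figure D5:**
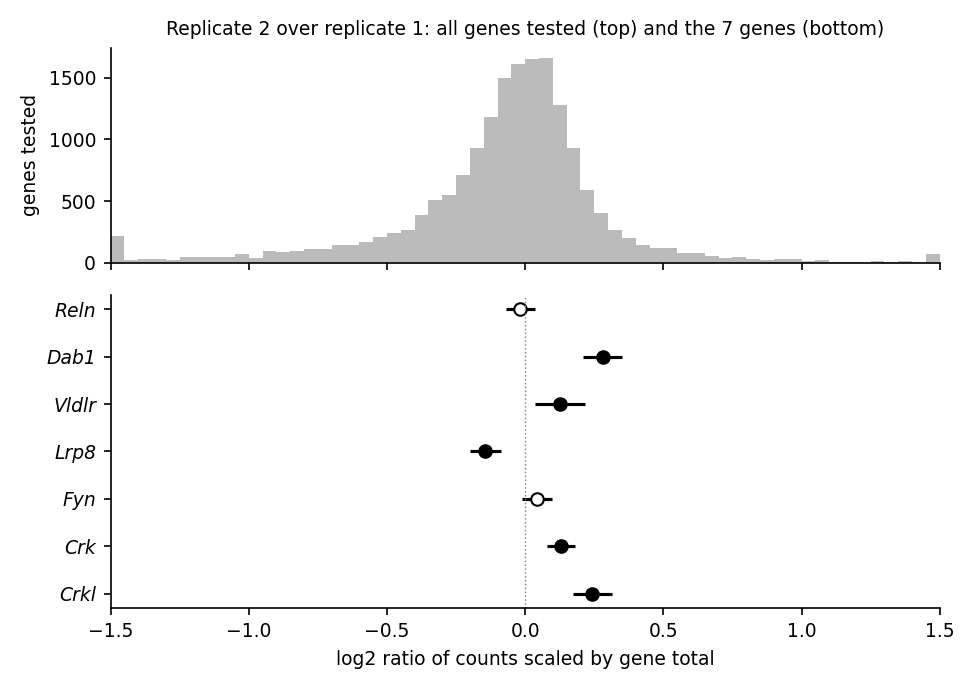
Top, number of genes tested by log2 ratio of scaled counts, replicate 2 over replicate 1, with values beyond 1.5 in either direction gathered in the end bins; bottom, the same ratio for the 7 genes with 95% intervals, filled where called. Dab1 and Crkl lie farthest right, Lrp8 lies left of 0, and Reln and Fyn (open) cross 0.

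Markers of cell types that make or receive reelin were called in both directions, beside the 34.4% of all genes called. Of 12 Purkinje lineage markers, 7 were called higher and 3 lower in replicate 2, with summed levels of 564.5 and 651.1 TPM. Gad1, which makes GABA, had 69.41 and 94.33 TPM and Pcp4 272.81 and 309.96 TPM, while the transcription factor Bcl11a had 91.77 and 85.26 TPM and was called lower. Gad1, Pcp4 and Bcl11a together made up most of both sums. Of 13 markers of the granule and nuclear lineage, 5 were higher and 2 lower, with sums of 351.5 and 366.7 TPM. Mab21l1 (93.36 and 109.25 TPM) was higher, Meis2 (125.56 and 108.59 TPM) lower, and Neurod1 (27.98 and 30.72 TPM) not called. No marker of either list was at 0 in both libraries, but only 10 of 12 Purkinje and 10 of 13 granule and nuclear markers reached 1 TPM in both. Below it in at least 1 library were Ptf1a (0.4 and 0.62 TPM) and Skor2 (0.81 and 1.8 TPM) of the Purkinje list. So were Barhl2, Tbr1 and Eomes of the other list (all named after their values were seen). The part of these lists in the values of Dab1, Crkl or Lrp8 was not tested.

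Markers of other cells were called to different extents. Choroid plexus markers summed to 1930 and 1168 TPM, with 5 of 7 called lower and 1 higher, and Ttr had 1824.8 and 1094.17 TPM. Of 8 meningeal and fibroblast markers 7 were lower and 1 higher, with Col3a1 at 307.93 and 260.06 TPM. Of 8 erythroid markers 5 were higher and 2 lower. The shares called among pan-neuronal (33.3%), microglial (25%) and Cajal-Retzius (42.9%) markers were below or not far above the 34.4% of all genes. Numbers called higher and lower were 1 and 2 of 9 pan-neuronal, 4 and 2 of 9 progenitor, 1 and 3 of 8 endothelial and pericyte, and 0 and 2 of 8 microglial markers. They were 1 and 2 of 7 Cajal-Retzius, 3 and 4 of 9 precerebellar, 0 and 4 of 8 facial and branchiomotor, 1 and 6 of 10 hindbrain position and 2 and 0 of 3 tested forebrain markers. Calb2, a calcium-binding protein of the Cajal-Retzius list, had 61.47 and 81.93 TPM. Whether any of these lists bears on the 7 genes was not tested.

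The RNAs of proteins that process reelin outside the cell or regulate its receptors were all detected. The 12 genes of this list reached 1 TPM in both libraries, and 2 were called higher and 2 lower in replicate 2, close to the background share. Lrpap1, the chaperone of LDL receptor family members, was highest with 120.54 and 128.89 TPM. Plat, the tissue plasminogen activator that can cleave reelin, had 84.42 and 90.71 TPM, and neither was called. The reelin protease Adamts3 had 4.72 and 4.79 TPM and Adamts2 4.94 and 5.52 TPM, both named after their values were seen. Itgb1, an integrin subunit, had 80.06 and 93.71 TPM and was called higher (adjusted p = 1.3e-09, exact binomial test).

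Other ligands of the receptors differed widely in level. Apoe, a lipid carrier that binds both, had 423.34 and 448.26 TPM, above Reln in each library. Selenop, a selenium carrier taken up through Lrp8, had 167.75 and 166.9 TPM, and Clu, a secreted chaperone, 65.39 and 71.98 TPM. Thbs1 (5.15 and 5.31 TPM), Lpl (3.76 and 3.21 TPM) and Apob (0.14 and 0.06 TPM), named after their values were seen, were low. Of 6 ligands, 5 reached 1 TPM in both libraries and Apob did not. None was called higher and 2 were called lower, Selenop and Lpl, or 33.3% in all, close to the 34.4% of all genes.

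Downstream of Dab1, all 33 listed effectors reached 1 TPM in both libraries. Of these, 11 were called higher and 5 lower in replicate 2, or 48.5% in all. Over all genes 34.4% were called (15.7% higher and 18.7% lower), and 41.5% of those with a mean count of at least 100. The median log2 TPM ratio of the list was 0.07, against 0.04 over all genes tested. Cfl1, the actin-severing protein that the pathway restrains through Limk1, led with 2315.12 and 2477.59 TPM. The microtubule-binding protein Mapt had 724.59 and 799.93 TPM and the small GTPase Rap1b 178.0 and 197.25 TPM. These 3 were among the genes called higher. Rasgrf2, an exchange factor for Ras and Rac, had the largest fold of the list, 5.13 and 8.14 TPM (adjusted p = 4.3e-10, exact binomial test).

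The list for Dab1 turnover and receptor trafficking had 17 genes, which all reached 1 TPM in both libraries. Of these, 5 were called higher and 3 lower, or 47.1% in all, with a median log2 TPM ratio of 0.08. The shares called in this paragraph stand beside the same 34.4% of all genes, and 41.5% at a mean count of at least 100. Elob, a subunit of the ubiquitin ligase that removes Dab1, had 999.81 and 869.55 TPM and was called lower. Aplp1 (528.77 and 592.41 TPM) and App (338.84 and 378.75 TPM), membrane proteins whose tails bind Dab1, were called higher. Of 14 LDL receptor family members, 3 were higher and 5 lower, or 57.1% in all (median -0.01). Vldlr itself is among the higher and Lrp8 itself among the lower. Of 7 tested Src family kinases, 1 was higher (Yes1) and 1 lower (Src), or 28.6% in all (median 0.13), and Blk had no reads. Of 7 genes in the list of Dab, Crk and other adaptors, 4 were higher and 1 lower, or 71.4% in all (median 0.20). Of those 4, 3 are Dab1, Crk and Crkl themselves. Among the 43 genes of these lists that were called, the TPM ratio of Lrp1 and Pik3r3 had the other sign than the scaled counts.

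Genes that overlap the 7 could in principle share reads with them, and no source used here states whether counting used strand. The antisense genes that touch an exon were low: Gm10475 on Reln had 5.06 and 5.10 reads and Gm16365 on Fyn 7 and 10 reads in replicates 1 and 2. Lrp8os2, antisense to Lrp8 without touching its exons, had 51 and 36 reads. Each is small beside the reads of its partner.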

How the data were processed

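Total RNA was extracted from hindbrain and 10 ng of RNA longer than 200 nucleotides, with spike-in RNA, entered each library, per the labels. Per the file headers, the authors assigned reads to mm10 with annotation M4; which aligner, quantifier and strand setting they used is not given in the sources used here. For genes and transcripts, expected counts were deposited without normalisation. TPM and FPKM were deposited after scaling by the authors, with spike-ins in the total (8.15% and 7.72% of TPM). The authors' percent of each gene per transcript served for the posterior-mean alternative; other shares were recomputed from TPM. The deposited credibility bounds of TPM, used as score values, have no stated level.

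Symbols and structures came from GENCODE M21 (GRCm38), matched on identifiers without version. Expected counts were rounded, and genes with a mean of at least 10 were tested by the exact two-sided binomial test with Benjamini-Hochberg adjustment (scipy 1.17.1). The test was run on counts simulated with counting noise and seeded changes alone. That cannot show how it behaves where libraries vary further. Median log2 ratios used TPM with a pseudocount of 1. Intervals are exact Clopper-Pearson. Detection meant at least 1 TPM. Reads are not independent molecules, so intervals cover counting error only. The members and lists were chosen with earlier results of these data known. Named were all 7 members, the 3 highest genes of each list (some marker lists are given by counts), list genes called with at least 1.5-fold (results for some are not reported here), and transcripts with at least 10% of their gene; Corl2 had no match. The 55 member transcripts were grouped by M21 type. No genome or protein table was used. Alternatives were other scalings (edgeR 4.0.16 TMM, DESeq2 1.42.0, spike-in total), count and level filters, posterior means, FPKM, pseudocounts, coding or long transcripts alone, and each replicate alone. Other tools were Python 3.11.15, numpy 2.4.6, pandas 2.3.3, matplotlib 3.10.9 and R 4.3.3.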

Additional observations from a re-analysis of the deposited data

How the results depend on the processing

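With the spike-in total 0 members were called lower, 6 higher, and the log2 ratio of Reln, not called with the gene total, was 0.11. A 2-fold minimum left 0 members called, 0 higher and 0 lower, and 540 of all genes, against 5 members and 6079 genes without it. Mean levels without spike-in, mitochondrial and numeric-identifier features were 54.7 TPM for Reln, 27.3 for Vldlr, 59.1 for Lrp8, 98.8 for Fyn and 97.8 for Crk. From coding transcripts they were 21.9 for Reln, 41.5 for Dab1, 16.2 for Vldlr and 33.3 for Lrp8, and from transcripts of at least 1000 bases 26.7, 41.3, 20.6 and 45.2 TPM; both settings were chosen after seeing the data, as were TMM factors for the lists. Mean exon inclusion by expected counts was 83.9% for Dab1 exon 7, 75.6% for Vldlr exon 4, 52.0% for the Vldlr sugar exon, 16.2%, 15.7% and 16.3% for the Lrp8 three-repeat, single-repeat and insert exons, 86.5% for FynB, 6.05% for FynT and 81.8% for CrkII. Over coding transcripts it was 97.2% for Dab1 exon 7, 56.2% and 46.6% for the Vldlr exons, and 3.36%, 0% and 3.36% for the Lrp8 exons. By posterior means it was 68.0% for Dab1 exon 7, 99.8% for the Lrp8 sugar exon and 7.87% for FynT. Log2 ratios over coding transcripts were -1.18 for Reln over both receptors, -0.27 for Dab1 over both receptors and 0.70 for Fyn over the other kinases. Coding and count settings differ by construction in the transcripts or weights counted; elsewhere the cause was not tested. With other forms of the exon in the denominator, also chosen after seeing the data, the Reln microexon was at 49.3%. Some shares rested on few reads, such as that of Dab1-208 with 0 and 15.98. No paired analysis was possible because the libraries form 1 group.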
